A study of Homo sapiens with 10 samples.

Results

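The integrated stress response core was followed here as 9 genes out of the 20327 in each deposited table: the transcription factors ATF4, ATF5, ATF3 and DDIT3, the regulators NUPR1 and TRIB3, and the effectors CHAC1, VLDLR and STC2. The members were chosen by their known place in the pathway, matched from Ensembl identifiers to symbols, and low-expressed members were kept. They were put together with the results of both treatment comparisons already known, so their changes after merbarone are a description and support no claim about the pathway. RNA was measured by sequencing of polyadenylated RNA in wild type hTERT RPE-1 cells, a telomerase-immortalised line labelled as retinal pigment epithelium, after 48 h in 0.1% serum. Merbarone, a catalytic inhibitor of topoisomerase II, was given at 200 µM for 30 min (3 libraries) beside DMSO vehicle for 30 min (3 libraries), and in another experiment at 200 µM for 2 h (2 libraries) beside cells left untreated (2 libraries). All cells of both experiments had thus been starved of serum, and the controls of the 2 h experiment had received no vehicle. The labels do not say whether replicates came from separate cultures, so the tests measure the spread between these libraries, which may be technical.

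The integrated stress response is a common answer to several kinds of stress. Kinases that sense amino acid shortage, misfolded protein in the endoplasmic reticulum, double-stranded RNA or haem shortage phosphorylate the initiation factor eIF2, which lowers most protein synthesis while translation of a few mRNAs, ATF4 and ATF5 among them, goes up. The ATF4 protein then switches on genes for amino acid supply, for further transcription factors such as ATF3 and DDIT3, and for proteins that end or redirect the response. Because ATF4 and ATF5 are controlled largely at translation, their mRNA level is an incomplete measure of their activity, and no protein was measured here.

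Values are RPKM, reads scaled to the length of the gene and to the depth of the library. Whole reads could be recovered from the steps in the values. Summed over genes they came to 26633780 to 38225538 per library in the 30 min experiment and 11956652 to 13691014 in the 2 h experiment. Reads shared by overlapping genes may be counted more than once in these sums. All 9 members had reads in all 10 libraries, from 19 reads of CHAC1 in an untreated library to 63412 of STC2 in a merbarone library. The length behind each RPKM value ran from 1890 bp for NUPR1 to 55444 bp for ATF3 and took in introns for most members, so an abundant mRNA of a long gene has a low RPKM. Of 10 genes read for cell type or line identity, RPE65, RLBP1 and TYR were near 0 (at most 19, 22 and 14 reads in any library). MITF and TERT averaged 0.284 and 0.121 RPKM. The other 5 had higher values, and those of 3 differed between the controls of the experiments. In DMSO and untreated cells BEST1 measured 2.58 ± 0.361 and 18.8 ± 0.712 RPKM, KRT8 2.00 ± 0.182 and 5.72 ± 0.934, and KRT18 16.96 ± 2.38 and 59.5 ± 3.63 (SD, n = 3 and 2). PMEL measured 4.11 ± 0.150 and 4.87 ± 0.277 RPKM and OTX2 3.23 ± 0.742 and 4.48 ± 0.182 (SD, n = 3 and 2). Overlap with other genes was looked up for the members only. The part of reads from overlapping genes in these 5 values was not tested. At 2 h OTX2 fell by 0.32 on the log2 scale, a call lost without either 2 h merbarone library, with no filter, at a mean of 5 RPKM and with all 10 libraries in 1 fit.

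Tests were made with limma on log2(RPKM + 1) over all genes that averaged 1 RPKM or more in the libraries compared, with Benjamini-Hochberg adjustment and a threshold of 0.05. At 2 h of merbarone, 5 of the 8 members tested had passed, all of them higher: CHAC1, ATF3, DDIT3, TRIB3 and STC2. CHAC1 and ATF3 averaged 0.448 and 0.108 RPKM untreated and reached the filter only through the treated libraries, at 26.7 and 2.69 RPKM. Only a rise could bring these genes into the test, so the count is partly set by the filter. Over all 6620 genes tested the share that passed was 13.1%, with 5.98% higher and 7.10% lower. ATF4 and NUPR1 were higher and ATF5 lower without passing, and VLDLR lay below the filter. Voom, limma's model for counts, called 6 of 9 members from recovered reads, ATF4 in addition, where 14.0% of 13440 genes passed. With the replicate number as a block 7 of 8 passed, ATF4 and ATF5 in addition, where 32.2% of all genes did. At 30 min none of the 6 members tested had passed, where 0.0154% of 6500 genes did. None of the 6 had an unadjusted limma p under 0.05, beside 24 of all 6500 genes, so this 0 says little. That fit took no account of the pairing of same-numbered libraries described below. With the replicate block 0 of 6 passed and 0 had such an unadjusted p, beside 8 and 208 of all 6500 genes. The ratio of treated to untreated means at 2 h ran from 59.6 for CHAC1 to 0.775 for ATF5 among the 9 members. In bulk RNA, a change in the share of cells with an mRNA and a change in its amount per cell cannot be told apart.

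**Figure D1:**
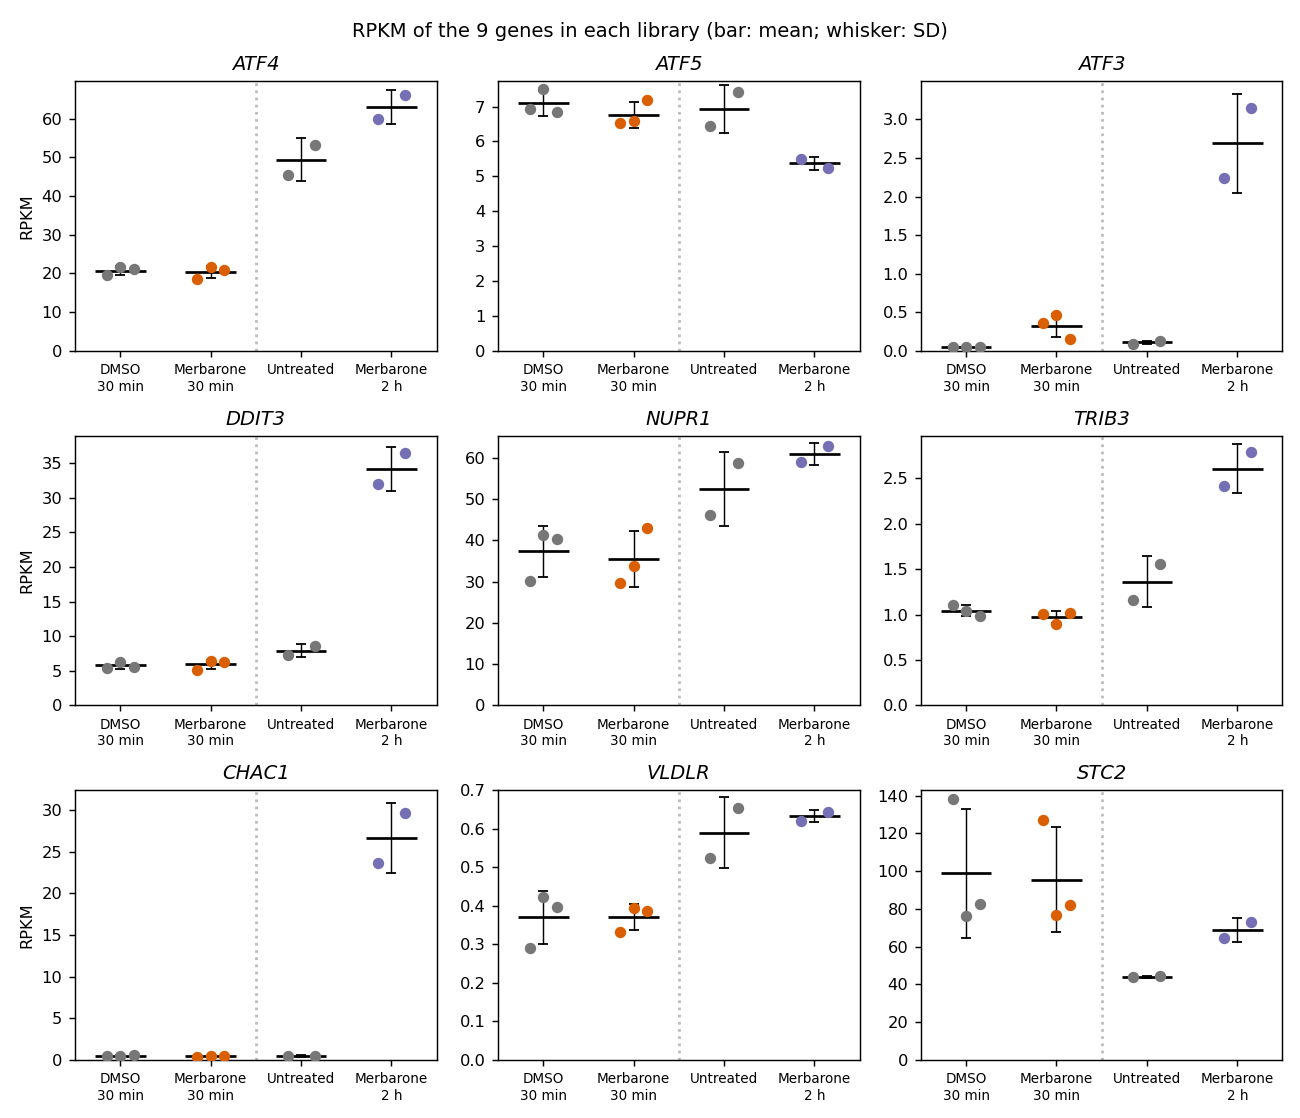
RPKM (vertical axis, linear and starting at 0, a scale for each gene) of the 9 members in the 4 groups (horizontal axis); points are libraries, bars are group means and whiskers are SD, with 3 libraries per group left of the dotted line and 2 right of it. CHAC1, at 0.318 to 0.596 RPKM in every other library, stands at 23.7 and 29.7 RPKM after 2 h of merbarone, and ATF4 is higher in all libraries of the 2 h experiment than in those of the 30 min experiment.

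ATF4 (ENSG00000128272; GRCh37 chromosome 22, 39915700 to 39918688, plus strand) is the central activator of the response. It measured 19.5, 21.7 and 21.0 RPKM in DMSO and 18.5, 21.6 and 20.9 RPKM after 30 min of merbarone. The untreated libraries held 45.6 and 53.3 RPKM and the 2 h merbarone libraries 60.0 and 66.1 RPKM. The 30 min groups overlapped throughout. The 2 h groups did not overlap, and the ratio of the means was 1.27. In log2 terms the difference was 0.35 ± 0.12 (SE), which did not pass. It did pass with quantile normalization, with voom and with the replicate number as a block. Against the first untreated library alone it was 0.46 and passed, and against the second alone 0.24 and did not. In such fits a group of 1 library is assumed to vary like the other group.

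ATF5 (ENSG00000169136; chromosome 19, 50431959 to 50437192, plus strand) is the closest relative of ATF4 in this set and, like it, is controlled through upstream reading frames. It measured 6.93, 7.51 and 6.83 RPKM in DMSO against 6.51, 6.59 and 7.19 RPKM after 30 min of merbarone. It measured 6.45 and 7.41 RPKM in untreated cells and 5.50 and 5.24 RPKM at 2 h. It was the 1 member that lay lower in both 2 h libraries than in both controls. The difference of -0.31 ± 0.10 (log2, SE) missed the threshold, but passed with the replicate block and with all 10 libraries in 1 fit. Against the second untreated library alone it was -0.40 and passed, and against the first alone -0.23 and did not. The annotated gene lies across IL4I1 and NUP62 on the other strand, and the use of strand in counting is not given in the sources used here. IL4I1 and NUP62 measured 4.15 ± 0.0152 and 7.21 ± 0.0216 RPKM untreated and 3.68 ± 0.214 and 6.39 ± 0.365 RPKM at 2 h (SD, n = 2). Their log2 changes of -0.14 and -0.15 did not pass. IL4I1 and NUP62 had nearly equal read numbers in every library, such as 2211 and 2210 in the first untreated one. They thus cannot be taken as 2 separate measurements. The part of IL4I1 and NUP62 in the ATF5 value was not tested.

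ATF3 (ENSG00000162772; chromosome 1, 212738676 to 212794119, plus strand) is a stress-induced factor that acts mostly as a repressor and is reached by several pathways besides ATF4. It was the member that was already higher at 30 min. The DMSO libraries held 0.0487, 0.0517 and 0.0491 RPKM, from 72, 88 and 104 reads. The 30 min merbarone libraries held 0.359, 0.460 and 0.158 RPKM, from 671, 956 and 308 reads. All 3 treated libraries thus lay above all 3 controls, as did 1.26% of the 14012 genes with enough reads for voom, and the same-numbered pairs differed 7.38-, 8.90- and 3.23-fold. The third treated library had the smallest rise.

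The mean ATF3 level at 30 min was below the filter of 1 RPKM, so the main test did not include it. In voom on recovered reads it passed with the replicate block (log2 fold change 2.64 ± 0.23, SE) and did not pass without it (2.58 ± 0.55, SE). In the fit with the block 0.0928% of 14012 genes passed, and in the fit without it 0.00714%. At 2 h the contrast was wider. The untreated libraries held 0.0934 and 0.122 RPKM from 69 and 81 reads, and the treated libraries 2.24 and 3.14 RPKM from 1698 and 2274 reads. The mean rose 25.0-fold, with 18.3 between the nearest and 33.7 between the farthest pair of libraries. On the log2(RPKM + 1) scale this was 1.73 ± 0.10 (SE), a scale on which a gene of low RPKM is understated: with a pseudocount of 0.1 it was 3.73, and from recovered reads 4.63. Without the second treated library ATF3 fell below the filter, and with no filter it did not pass.

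DDIT3 (ENSG00000175197; chromosome 12, 57910371 to 57915520, minus strand), also known as CHOP, is the factor linked to cell death when stress persists. It measured 5.41, 6.32 and 5.54 RPKM in DMSO and 5.15, 6.38 and 6.22 RPKM after 30 min of merbarone. Untreated libraries held 7.24 and 8.57 RPKM, and 2 h libraries 32.0 and 36.5 RPKM. The groups overlapped at 30 min and stood far apart at 2 h, where the mean rose 4.33-fold (log2 fold change 1.98 ± 0.12, SE). DDIT3 and CHAC1 were the members that also passed with no filter on low values, where 7 of 9 did not. The share of all genes that passed in that fit was not worked out. The annotated gene overlaps MARS1 and MBD6 on the plus strand. MARS1, a methionyl-tRNA synthetase that belongs to the ATF4-linked list below, rose at 2 h from 3.52 ± 0.21 to 6.74 ± 0.557 RPKM (SD, n = 2), and MBD6 measured 6.06 ± 0.0841 and 6.92 ± 0.338 RPKM (SD, n = 2). The 1.91-fold change of MARS1 was smaller than that of DDIT3; the share of reads that they have in common was not tested.

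NUPR1 (ENSG00000176046; chromosome 16, 28544029 to 28550329, minus strand) encodes a small stress-induced chromatin protein. It measured 30.1, 41.4 and 40.4 RPKM in DMSO and 29.7, 33.8 and 43.1 RPKM after 30 min of merbarone. Untreated libraries held 46.1 and 58.8 RPKM, and 2 h libraries 59.0 and 62.9 RPKM. The highest control and the lowest treated library at 2 h were nearly equal, and the difference of 0.22 ± 0.14 (log2, SE) missed the threshold. Against the first untreated library alone it was 0.40 and passed, and against the second alone 0.05 and did not.

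TRIB3 (ENSG00000101255; chromosome 20, 343479 to 378203, plus strand) encodes a pseudokinase that binds ATF4 and DDIT3 and restrains them. It measured 1.10, 1.04 and 0.988 RPKM in DMSO against 1.00, 0.896 and 1.01 RPKM at 30 min. It rose from 1.16 and 1.56 RPKM in untreated cells to 2.42 and 2.80 RPKM at 2 h, from 263 to 618 reads. The mean ratio was 1.91, or 0.61 ± 0.10 in log2 terms (SE). TRIB3 and STC2 lost the call with no filter on low values.

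CHAC1 (ENSG00000128965; chromosome 15, 41245160 to 41248710, plus strand) encodes an enzyme that breaks down glutathione and is a target of the ATF4, ATF3 and DDIT3 axis. Its 30 min values were 0.454, 0.422 and 0.596 RPKM in DMSO and 0.318, 0.391 and 0.474 RPKM with merbarone, from 38 to 81 reads. No rise was seen at that time: the same-numbered pairs had ratios of 0.699, 0.926 and 0.795. At 2 h the untreated libraries held 0.401 and 0.494 RPKM from 19 and 21 reads, and the treated ones 23.7 and 29.7 RPKM from 1152 and 1374 reads. The ratio of the means was 59.6, and it lay between 47.9 and 73.9 for single libraries. The log2 fold change was 4.25 ± 0.11 (SE), or 5.61 with a pseudocount of 0.1 and 5.86 from recovered reads.

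Promoter sequence was read for the 3 members with the largest rises at 2 h. Windows of 300 bases (250 before and 50 after each annotated start) came from RefSeq on GRCh38.p14, which is another build than that of the gene positions above. Windows were present for 8 of the 9 members; NUPR1 had none. ATF4 binds, with a C/EBP partner, composite elements that join a C/EBP and an ATF site, searched as TGATGCAA and, with any base at 1 position, as TGATGNAA, which includes the former. The cAMP response element TGACGTCA and the AP-1 site TGACTCA were searched as well, all on both strands. The 250 bases before the start are printed 5′ to 3′ on the strand of the gene, with matches in capitals. They are chr15:40953221-40953470 (plus) for CHAC1, chr1:212565157-212565406 (plus) for ATF3 and chr12:57520518-57520767 (minus) for DDIT3, the last 2 for the more upstream of 2 annotated starts.
CHAC1: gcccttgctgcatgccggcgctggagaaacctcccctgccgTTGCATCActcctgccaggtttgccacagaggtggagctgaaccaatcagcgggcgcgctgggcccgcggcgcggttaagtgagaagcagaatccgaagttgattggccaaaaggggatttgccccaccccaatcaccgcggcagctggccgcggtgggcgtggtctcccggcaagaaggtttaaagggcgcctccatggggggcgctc
ATF3: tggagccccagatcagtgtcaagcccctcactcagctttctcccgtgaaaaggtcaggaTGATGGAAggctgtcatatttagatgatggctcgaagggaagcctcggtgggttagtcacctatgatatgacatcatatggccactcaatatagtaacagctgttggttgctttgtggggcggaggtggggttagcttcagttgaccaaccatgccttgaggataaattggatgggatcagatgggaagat
DDIT3: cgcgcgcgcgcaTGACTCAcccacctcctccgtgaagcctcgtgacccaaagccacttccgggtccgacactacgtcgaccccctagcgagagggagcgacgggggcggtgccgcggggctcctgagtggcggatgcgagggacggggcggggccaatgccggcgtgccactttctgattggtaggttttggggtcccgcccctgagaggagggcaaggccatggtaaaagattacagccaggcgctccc

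The CHAC1 window held TTGCATCA, the reverse complement of TGATGCAA, beginning at base -209 from the start. That element was present in 0.866% of 35116 RefSeq windows and in the windows of no other member. The printed ATF3 window held TGATGGAA at -191, a match to TGATGNAA, which 3.62% of windows contained. The other ATF3 window held no match to any sequence searched, and which start was in use was not tested. DDIT3 held TGACTCA at -238, as did 1 window of ATF5 at -188, against 4.95% of all windows. No member window contained TGACGTCA, which 1.85% of windows did. Of the other ATF4-linked genes described below, 28 had a window and 10 of them held TGATGNAA, ASNS, CEBPG and SLC3A2 among these, against 4.46% of all 27305 genes with windows. A match shows only that the letters are there, and elements elsewhere, such as in introns, were not searched.

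VLDLR (ENSG00000147852; chromosome 9, 2621182 to 2660056, plus strand), a lipoprotein receptor induced by ATF4 in liver cells, stayed below the filter in both experiments. It measured 0.291, 0.422 and 0.396 RPKM in DMSO and 0.332, 0.394 and 0.387 RPKM after 30 min. At 2 h it measured 0.524 and 0.654 RPKM in controls and 0.621 and 0.644 RPKM in treated cells. The groups overlapped in both experiments, from 267 to 579 reads per library. Voom on recovered reads gave log2 fold changes of 0.01 ± 0.16 and 0.11 ± 0.15 (SE), and neither passed.

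STC2 (ENSG00000113739; chromosome 5, 172741726 to 172755450, minus strand) encodes stanniocalcin 2, a secreted glycoprotein. It measured 138, 76.2 and 82.5 RPKM in DMSO and 127, 76.9 and 82.0 RPKM after 30 min of merbarone. The first library of each 30 min group was far above the others, and the pairs of the same number differed by ratios of 0.921, 1.01 and 0.994 only. At 2 h STC2 rose from 43.7 and 44.2 RPKM to 64.3 and 73.2 RPKM, a ratio of means of 1.56, or 0.63 ± 0.11 in log2 terms (SE). The call was lost without the second treated library and in the fit of all 10 libraries.

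**Figure D2:**
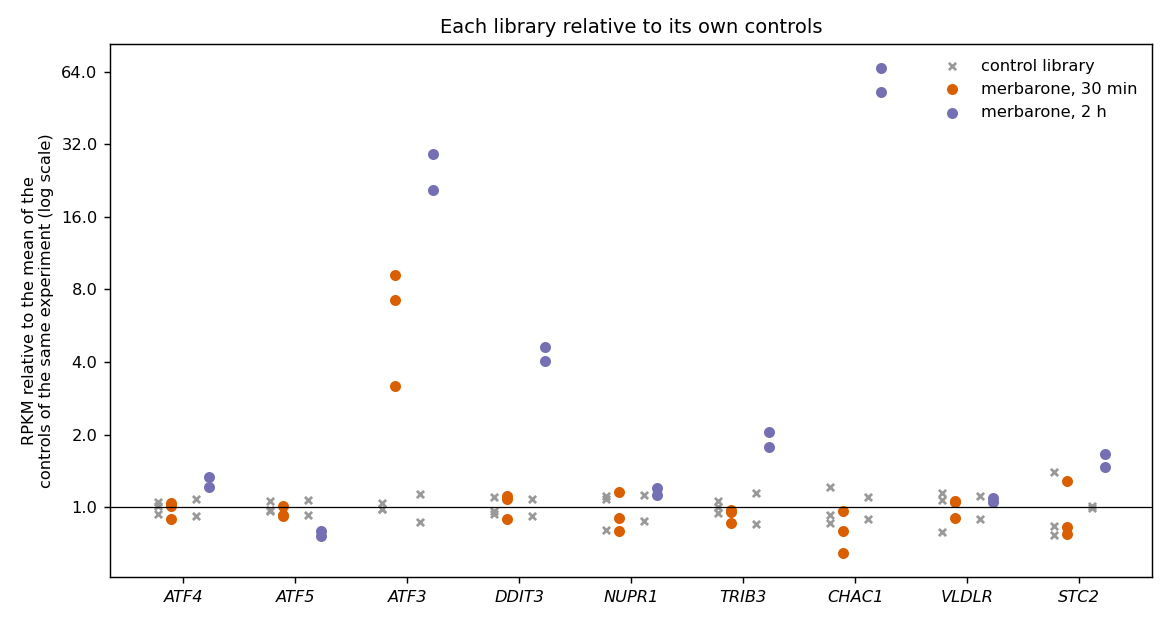
RPKM of each library divided by the mean of the controls of its own experiment (vertical axis, log scale) for the 9 members (horizontal axis); crosses are control libraries and filled points merbarone libraries at 30 min (left of each gene) and 2 h (right). ATF3 lies above its controls at both times, with means 6.54-fold and 25.0-fold over them, while CHAC1 and DDIT3 do so at 2 h and ATF5 lies below its controls at 2 h.

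The libraries of the 2 h groups did not overlap for any of the 8 members tested, 7 higher and 1 lower. Among all genes tested 61.5% were separated in this way, 22.5% higher and 39.0% lower, so separation alone is common in that experiment. CHAC1 and ATF3, both among the 7, reached the filter only through the treated libraries. VLDLR, whose 2 h groups overlapped, lay below the filter. The count of separated members is thus partly set by the filter. The effect at 2 h minus that at 30 min was fitted over all 10 libraries and passed for CHAC1, DDIT3 and TRIB3 of 7 members tested, at differences of 4.35 ± 0.13, 1.95 ± 0.16 and 0.67 ± 0.11 (SE, log2), where 1.63% of 6558 genes passed. With the replicate block it also passed for ATF4 (0.38) and STC2 (0.67), where 19.1% of all genes did, and voom with the block called 6 of 9, where 15.1% did. TRIB3 lost this call without the second 30 min merbarone library (0.64) and without the second 2 h merbarone library (0.59). CHAC1 reached the filter of the fit over all 10 libraries only through its 2 h merbarone libraries. Duration, vehicle and experiment differ together between the arms of this contrast and cannot be told apart.

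A list of 37 other genes known to be induced by ATF4 or together with it was read from the same fits; it was drawn up with earlier results known. At 2 h 27 were tested, 18 rose and none fell, beside 5.98% higher among all genes. The median log2 fold change was 0.64 against -0.05 for all genes tested. The filter takes the mean of control and treated libraries, so a gene low in controls enters the test only by rising. ASNS, SESN2 and PCK2 entered in this way, at 0.840, 0.818 and 0.723 RPKM untreated and 3.44, 6.59 and 2.91 RPKM at 2 h. The count of 18 is thus partly set by the filter. DDIT4, an inhibitor of mTORC1, had the largest change of those tested on the log2(RPKM + 1) scale (2.98 ± 0.14, SE), from 28.9 ± 4.38 to 235 ± 30.7 RPKM (SD, n = 2). As ratios of the means, DDIT4 and SESN2 were alike at 8.14 and 8.06. GDF15, a secreted stress cytokine below the filter, had 4 and 1 reads in untreated and 38 and 27 reads in treated libraries. Voom called it higher, but took only genes averaging at least 10 reads, which GDF15 reached only through the treated libraries. SESN2, another restraint on mTORC1, rose by 2.05 ± 0.12 and BBC3, a death gene shared with p53, by 1.64 ± 0.10 (SE). SLC3A2, the heavy chain of amino acid exchangers, rose by 1.40 ± 0.10 and CEBPB, a partner of ATF4, by 1.36 ± 0.12 (SE). The 9 genes that did not pass included the amino acid transporter SLC38A2 (0.06) and the translation repressor EIF4EBP1 (-0.03). With no filter 3 of 36 passed, and with a mean of at least 5 RPKM 9 of 12. At 30 min 0 of 23 genes tested passed. ASNS, SESN2, PCK2, BBC3, PSAT1 and GPT2, all called at 2 h, were not among the 23. None of the 23 had an unadjusted limma p under 0.05, beside 24 of all 6500 genes. With the replicate block 0 of 23 passed and 1 had such a p, beside 208 of all 6500 genes.

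The upstream machinery of the response was a list of 19 genes. It held the eIF2 kinases, eIF2, its exchange factor eIF2B, the phosphatase that reverses the kinases, and the regulators DNAJC3, GCN1, IMPACT, DELE1 and OMA1. At 2 h 14 were tested, 2 rose and none fell, a share close to the 13.1% of all genes. Both that rose are regulatory subunits of the eIF2 phosphatase. PPP1R15A, also called GADD34 and itself induced by the response, rose by 1.24 ± 0.11 (log2, SE), with means of 37.5 ± 1.81 RPKM untreated and 89.6 ± 2.53 RPKM treated (SD, n = 2). PPP1R15B, the constitutive subunit, rose by 0.34 ± 0.09 (log2, SE), with means of 6.38 ± 0.337 and 8.33 ± 0.304 RPKM (SD, n = 2). Its call was lost when either 2 h merbarone library was left out, and leaving out the first untreated library raised the count of the list to 5. The haem-sensing kinase EIF2AK1 had a log2 fold change of -0.16 and the RNA-sensing kinase EIF2AK2 one of 0.08, and neither passed. The endoplasmic reticulum kinase EIF2AK3 (0.456 ± 0.0204 and 0.528 ± 0.0302 RPKM, SD, n = 2) and the amino acid sensor EIF2AK4 (0.949 ± 0.124 and 0.857 ± 0.00145 RPKM, SD, n = 2) were below the filter.

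Genes of protein folding in the endoplasmic reticulum, which the ATF6 and XBP1 arms of the unfolded protein response induce, were read as a list of 19. At 2 h 17 were tested, 2 rose, 1 fell and 14 did not pass, with a median log2 fold change of -0.09, where 13.1% of all genes passed, 5.98% higher and 7.10% lower. The count is near that background. HERPUD1, which acts in degradation of misfolded proteins and is also linked to ATF4, rose by 0.74 ± 0.10, and XBP1 itself rose by 0.63 ± 0.10 (SE). SEC61B, a subunit of the translocation channel, fell by 0.31 on the log2 scale, a call lost without either 2 h merbarone library. The chaperone HSPA5, the standard marker of these arms, measured 75.2 ± 4.34 RPKM untreated and 83.7 ± 3.81 RPKM at 2 h (SD, n = 2). Its difference of 0.15 (log2) did not pass, and DNAJB9, a target of XBP1, had 0.02. With no filter none of 19 passed in limma, while voom on recovered reads called 3, and without the first untreated library 7 of 17 passed.

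**Figure D3:**
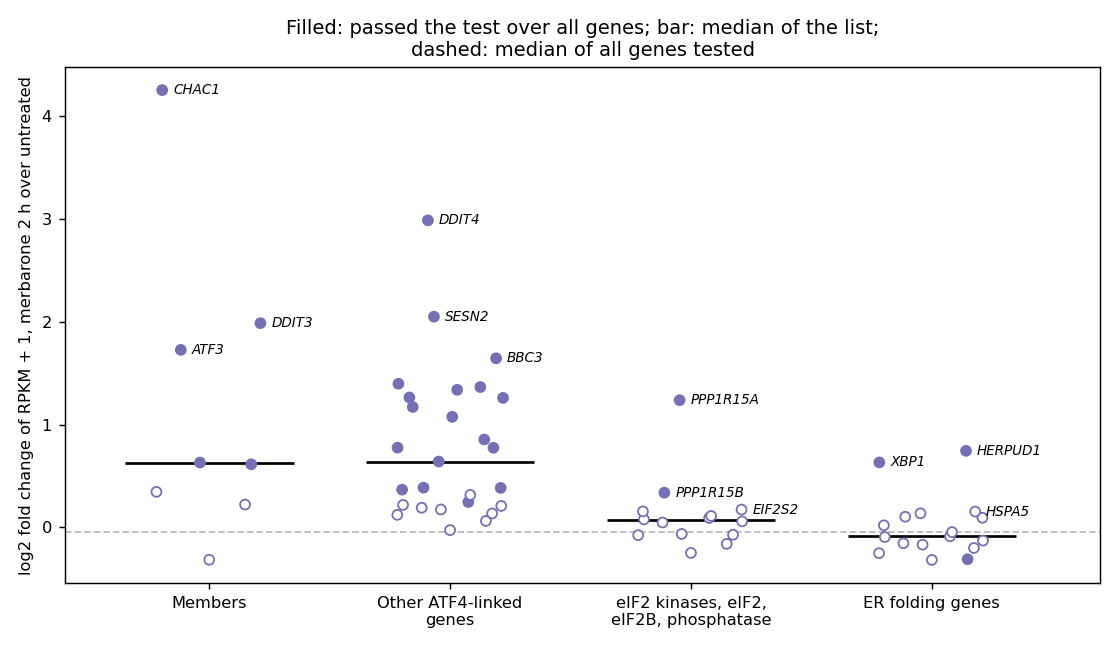
Log2 fold change of RPKM + 1 at 2 h of merbarone over untreated cells (vertical axis) for the tested genes of 4 lists (horizontal axis); each point is a gene, filled where it passed, bars are list medians and the dashed line is the median of all genes tested. The members and the other ATF4-linked genes have medians of 0.62 and 0.64, and those of the upstream machinery and the ER folding genes are 0.07 and -0.09.

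Relatives of the members were measured too. CEBPG, which pairs with ATF4, rose at 2 h by 1.34 ± 0.10 (log2, SE), with means of 3.92 ± 0.209 RPKM untreated and 11.4 ± 0.96 RPKM treated (SD, n = 2). JDP2, the closest relative of ATF3 and also on the ATF4-linked list, was below the filter with 0.310 ± 0.0309 and 0.695 ± 0.0776 RPKM (SD, n = 2). CHAC2, which shares the enzyme activity of CHAC1, was also below it, with 0.606 ± 0.218 and 0.757 ± 0.0167 RPKM (SD, n = 2), a ratio of 1.25 beside 59.6 for CHAC1. STC1, the relative of STC2, fell by 0.33 on the log2 scale, a call lost with a pseudocount of 0.1, no filter, median scaling, quantile normalization or all 10 libraries in 1 fit, and without either 2 h merbarone library. Of the TRIB3 relatives, TRIB1 had a log2 fold change of 0.28 that did not pass and TRIB2 measured 0.953 ± 0.031 and 0.648 ± 0.0226 RPKM (SD, n = 2). Voom on recovered reads called 4 of 10 relatives, CEBPG and JDP2 higher, TRIB2 and STC1 lower, where 14.0% of all genes passed. LRP8, ATF2 and ATF7 were below the filter at ratios of 1.07, 0.914 and 1.12. NUPR2 had at most 1 read in any library.

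The pattern closest to the mean of the 9 members was sought among genes averaging 1 RPKM or more over all libraries, by the root mean square distance of log2(RPKM + 1) from the own controls over 10 libraries. The mean of the members lay at 0.00 after 30 min and 1.06 after 2 h. At 2 h CHAC1 lay at 4.25, DDIT3 at 1.98 and ATF3 at 1.73, and no other member above 0.63. The mean thus leaned on CHAC1, and no member lay near it at 2 h. The 5 nearest genes were ITPRIP (distance 0.053), TSC22D3 (0.070), VEGFA (0.078), CSKMT (0.081) and PCK2 (0.087). VEGFA and PCK2 belong to the ATF4-linked list. Of the members TRIB3 was the nearest to their mean, at 0.202, and CHAC1 the farthest, at 1.43. ITPRIP went from 3.78 to 8.93 RPKM and VEGFA from 10.5 to 23.2 RPKM at 2 h, with 30 min differences of 0.02 each on the log2 scale.

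The controls of both experiments were compared with each other. This contrast was added after the data were seen, and the same libraries are the controls of the treatment comparisons. Its p-values are therefore a description. In the fit of all 10 libraries 3 of 7 members tested differed between untreated and DMSO cells, where 41.2% of 6558 genes did, so the share among the members was close to the background. Voom called 4 of 9, VLDLR in addition, where 33.0% of all genes passed. ATF4 was 2.38-fold higher in untreated cells (log2 difference 1.21 ± 0.10, SE; limma adjusted p = 4.16e-05), both untreated libraries lying above all 3 DMSO libraries. STC2 was 2.25-fold higher in DMSO (-1.10 ± 0.27, SE; limma adjusted p = 0.0107), and DDIT3 was higher in untreated cells by 0.40 ± 0.11 (SE; limma adjusted p = 0.0190). Without the second untreated library only ATF4 of the members passed; STC2 also lost the call without the first, and DDIT3 without the third DMSO library. The 2.38-fold difference of ATF4 between the controls stands beside a ratio of 1.27 at 2 h. The genes read for cell type or line identity were compared as well. All 5 tested were higher in untreated cells, as were 3989 of all 6558 genes. Of these 5, 3 passed, BEST1 by 2.47, KRT18 by 1.76 and KRT8 by 1.16 on the log2 scale. Voom tested 8 such genes, 6 higher and 2 lower, and called 4, where 33.0% of all genes passed. The part of these genes in the ATF4, STC2 and DDIT3 differences was not tested. The vehicle, the depth and the experiment cannot be told apart here.

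On the RPKM scale the order of the members shifted with treatment. In untreated cells NUPR1 (52.5 ± 9.01) and ATF4 (49.4 ± 5.46) RPKM (SD, n = 2) led with overlapping libraries, and STC2 held 43.7 and 44.2 RPKM. DDIT3 (7.90 ± 0.946) and ATF5 (6.93 ± 0.679 RPKM, SD, n = 2) followed within their spread, then TRIB3, VLDLR, CHAC1 and ATF3 at 1.36, 0.589, 0.448 and 0.108 RPKM. After 2 h of merbarone STC2 (68.7 ± 6.26), ATF4 (63.0 ± 4.32) and NUPR1 (61.0 ± 2.75 RPKM, SD, n = 2) were within their spread of each other. DDIT3 (34.2 ± 3.19) and CHAC1 (26.7 ± 4.23 RPKM, SD, n = 2) came next, so that CHAC1 had passed ATF5, TRIB3 and VLDLR. ATF3 (2.69 ± 0.642) and TRIB3 (2.61 ± 0.268 RPKM, SD, n = 2) could not be ranked against each other. The levels are per kilobase of the length the authors used and not per kilobase of mRNA.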

How the data were processed

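Per the file headers, the deposited values are RPKM, in a table of 20327 Ensembl genes for each library. The submitters' processing notes name Bowtie 1.2.0, DESeq2, edgeR, deepTools 2.4.1, hg19 and GRCh37; their roles, the counter and the annotation are not given in the sources used here. Symbols were matched for 19637 genes. Whole reads were recovered from the steps of the RPKM values for 100% of 17680 genes with a value above 0 (within 0.001 of a whole number). Positions and overlaps came from GENCODE v44 on GRCh37; DDIT3, NUPR1, TRIB3, VLDLR and STC2 had deposited lengths of 3930, 1890, 16943, 38220 and 14791 bp, unlike their spans there.

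Each experiment was fitted on its own with limma 3.58.1 (R 4.3.3): log2(RPKM + 1), a mean of at least 1 RPKM, eBayes with trend, two-sided, Benjamini-Hochberg threshold 0.05. The difference between experiments and the controls were contrasts over 10 libraries. The limma fits on log2(RPKM + 1) were tested on simulated data. Members, lists and tests were chosen with earlier results of these data known; the control contrast was added after seeing the data. All members were named, with the 5 largest called changes at 2 h of each list, the measured relatives (1 is not reported here) and the 5 nearest genes; other genes were chosen after their values were seen. Same-numbered 30 min libraries deviated together (correlations 0.924, 0.652 and 0.605), so the numbers pair them; the 2 h value was 0.314 over 2 pairs, which settles no pairing. Python 3.11.15, NumPy 2.4.6, pandas 2.3.3 and matplotlib 3.10.9 were used.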

Additional observations from a re-analysis of the deposited data

Results flagged for a closer look

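By the tested contrast in limma, the 2 experiments differed in their merbarone effect for 3 members and 13 other genes of the lists, 11 of them ATF4-linked. The effect at 2 h was higher than that at 30 min by 4.35 on the log2 scale for CHAC1, 1.95 for DDIT3 and 0.67 for TRIB3. It was higher by 2.99 for DDIT4, 2.06 for SESN2, 1.69 for BBC3, 1.41 for SLC3A2, 1.28 for ASNS, 1.25 for CEBPG, 1.15 for PCK2, 1.06 for VEGFA, 1.04 for PPP1R15A, 0.81 for MTHFD2, 0.75 for HERPUD1, 0.74 for PSAT1 and 0.74 for MARS1. Over all genes 1.63% passed. CHAC1, SESN2, ASNS and PCK2 averaged below 1 RPKM in all other groups and reached the filter only through the 2 h merbarone libraries. BBC3 and PSAT1 also lay below the filter of the 30 min fit. Time, vehicle and experiment cannot be told apart in these values.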

How the results depend on the processing

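Of 431 alternative values of the members' changes, 389 kept their direction and their side of the threshold, 12 lost a call, 16 gained one and 14 changed sign, all of these in fits that left out a library and none of them for a called value. Leaving out single libraries gave -0.072 to 0.033 for ATF4, -0.016 to 0.12 for DDIT3, -0.22 to 0.044 for NUPR1 and -0.26 to 0.23 for STC2 at 30 min, and between the controls -0.12 to 0.057 for ATF5 and -0.088 to 0.0090 for CHAC1.

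At 2 h 5 members passed; with no filter it was 2, and when genes had to average 5 RPKM it was 3 (fewer members tested), and 3 to 7 when libraries were left out. At 30 min 1 member, ATF3, passed in voom with the replicate block, against 0. For the difference between experiments 3 members passed, 5 with the replicate block and 6 with voom and the block, and 2 to 3 without single libraries. For the controls, 1 to 3 passed without single libraries. The ATF4-linked count of 18 became 3 with no filter and 9 at an average of 5 RPKM, and 13 to 22 without single libraries. The machinery count of 2 became 1 with no filter or with all 10 libraries in 1 fit, and 1 to 5 without single libraries. The ER folding count of 3 became 0 with no filter, 5 with the replicate block, 5 with voom and the block, and 2 to 7 without single libraries. The count of relatives, 2, became 1 with a pseudocount of 0.1, no filter, median scaling or all 10 libraries in 1 fit, 4 with voom, 5 with voom and the replicate block, and 1 to 3 without single libraries. The replicate block at 2 h added ATF4 and ATF5 to the members called (6 higher, 1 lower of 8), where 32.2% of all genes passed; its pairing is not established there. Beyond what the construction of a setting shows, the cause of these shifts was not tested. Shares over all genes were worked out for the main fits, the replicate block and voom only. Counts under the other settings therefore have no background beside them. CHAC1 rested on 19 and 21 reads in its controls, which limits the precision of its ratio.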
